A study of Mus musculus with 6 samples.

Results

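Expression of 10 genes of the lineage that runs from the dorsal lateral ganglionic eminence (LGE) to the interneurons of the olfactory bulb was followed in RNA-seq libraries of mouse LGE. The genes were taken by name from the full deposited table, where all 10 names were found among 29659 genes: Tshz1, Tshz2, Tshz3, Scgn, Vax1, Prokr2, Etv1, Pax6, Calb2 and Th. The tissue was LGE of C57BL/6 mice at embryonic day 16.5. The Zfhx3-CKO group (3 libraries) had the genotype Dlx5/6-Cre; Zfhx3F/F, in which Cre deletes floxed Zfhx3, the gene of a zinc-finger and homeodomain factor, in cells that have used the Dlx5/6 enhancer. The control group (3 libraries) had the genotype Dlx5/6-Cre, so that both groups carried the Cre transgene and only the Zfhx3-CKO group the floxed alleles. The comparison addresses what the conditional loss of Zfhx3 does to gene expression in the LGE.

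The dorsal LGE makes GABAergic neuroblasts that leave the ganglionic eminences, travel in the rostral migratory stream and settle in the olfactory bulb as granule and periglomerular interneurons. The more ventral LGE makes the projection neurons of the striatum, so that a dissected LGE holds both lineages. In mice, Tshz1 and Vax1 act in these neuroblasts as transcription factors, Prokr2 receives the prokineticin signal that guides them, and Scgn, Calb2 and Th are used to mark subsets of their progeny. In mice lacking Tshz1, neuroblasts fail to spread radially in the bulb and Prokr2 is reduced there.

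The libraries held 18960574 to 20311799 counts in the Zfhx3-CKO group and 15938590 to 16753355 in the control group. Zfhx3 itself was at 98.7, 87.3 and 99.3 CPM (counts scaled to a library total of 1000000) in Zfhx3-CKO libraries 1, 2 and 3, whereas control libraries 1, 2 and 3 had 134, 135 and 101 CPM. Its log2 fold change was -0.37 (adjusted p 0.0911 in edgeR's quasi-likelihood test), so the difference did not pass. The count is of Zfhx3 as a whole, and which exons are deleted is not given in the sources at hand. Of 13 LGE and striatal genes, all of which were tested, 5 fell (Ebf1, Isl1, Foxp1, Rarb and Bcl11b), 1 rose (Six3) and 7 did not pass in edgeR's test. A list of 7 genes of D1-type striatal neurons, which shares Ebf1 and Isl1 with it, summed to 258 to 312 CPM in Zfhx3-CKO libraries and 619 to 734 CPM in controls; 3 fell and 0 rose (0 at an unadjusted p under 0.05 and 0 with DESeq2), and 5 fell without Zfhx3-CKO library 3. A list of 7 genes of D2-type striatal neurons, which shares Six3 with the first, summed to 1093 to 1118 CPM in Zfhx3-CKO libraries and 629 to 660.0 CPM in controls; 6 rose and 0 fell (0 at an unadjusted p under 0.05 and 0 with DESeq2), and 4 rose without any 1 control library. These striatal markers thus moved in the same libraries as the members described below, and their part in the members' values was not tested. The Zfhx3-CKO libraries held 55947 to 59631 counts of Xist and the control libraries 5 to 9, so genotype and sex cannot be told apart. A list of 12 cortical excitatory neuron genes summed to 416, 315 and 518 CPM in Zfhx3-CKO libraries 1, 2 and 3 and to 245 to 264 CPM in the controls. Cux2 and Lhx2 were the largest terms of that sum in every library. Cux2 was at 141, 137 and 161 CPM in Zfhx3-CKO libraries against 129, 141 and 129 CPM in controls. Lhx2, which was called higher, was at 112, 121 and 83.9 CPM against 50.9, 57.7 and 67.4 CPM, an order over the Zfhx3-CKO libraries unlike that of the sum. The list's median gene stood at 1.24, 0.00 and 1.89 (log2) from the control mean in the 3 Zfhx3-CKO libraries. Of its 11 tested genes 2 rose and none fell in edgeR's test; at an unadjusted p under 0.05, 9 were higher and 1 lower, and DESeq2 called 4 higher and 0 lower. The count of 2 became 9 without Zfhx3-CKO library 2, 0 without Zfhx3-CKO library 1 or control library 1 or 2, and 1 without control library 3. The list of 8 medial ganglionic eminence and pallidal genes summed to 438, 557 and 605 CPM in Zfhx3-CKO libraries 1, 2 and 3 against 369 to 399.7 CPM in the controls, with 3 higher and none lower in edgeR's test; at an unadjusted p under 0.05, 5 were higher and 0 lower, and DESeq2 called 5 higher and 0 lower. The count of 3 became 6 without Zfhx3-CKO library 2, 0 without control library 1 or 2 and 1 without control library 3. In such bulk tissue, fewer cells of a type and less RNA per cell cannot be told apart. No label says whether each library came from its own animal, so every p-value here reflects library-to-library spread alone, and that spread could be technical.

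Of the members, 3 rose in the Zfhx3-CKO LGE: Tshz1, Vax1 and Scgn. Scgn would not have passed the filter on low counts by its control libraries alone, of which 2 of 3 reached the filter level. A filter of at least 5 CPM in 3 libraries left 2 of the 3 members, Tshz1 and Vax1. The other 7 did not pass, and none fell, in edgeR's test with Benjamini-Hochberg adjustment over all genes at 0.05 (none was lower at an unadjusted p under 0.05, and DESeq2, which called 4.44% of all genes tested lower, called none). Over all 16551 genes tested, edgeR called 3.87% higher and 3.48% lower. The same 3 members lay above every control library in every Zfhx3-CKO library, an arrangement found in 15.5% of all genes tested. The groups overlapped for the other 7, and 31.4% of all genes tested had groups without overlap in either direction. The median log2 fold change was 0.36 over the 10 members and 0.00 over all genes tested. For each of the 3, the exact two-sided permutation test over libraries gave p = 0.1, the smallest that 3 against 3 allow. The members were chosen with earlier results of these data known, so their count is a description.

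**Figure D1:**
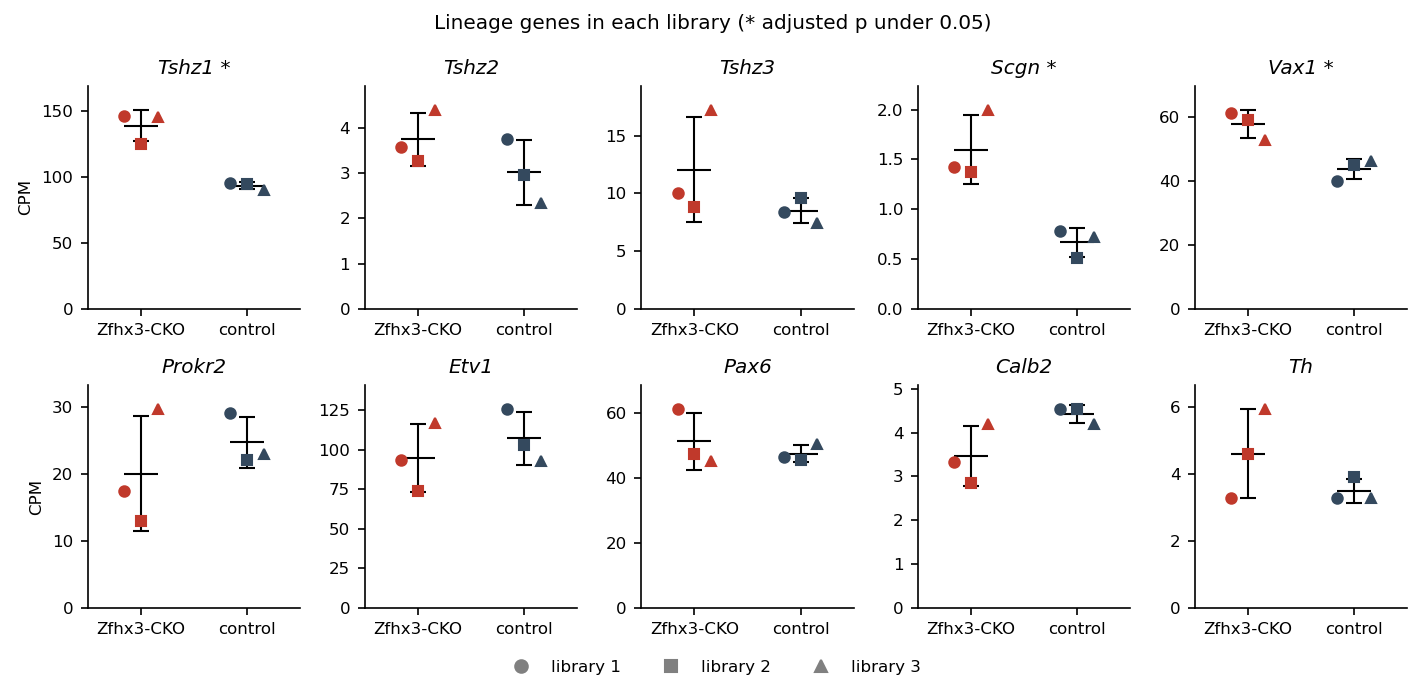
CPM of the 10 members in each library (symbols, libraries 1 to 3), with mean and SD over 3 libraries (black); each panel has its own axis from 0, and an asterisk marks an adjusted p under 0.05. Tshz1, Scgn and Vax1 show no overlap between the groups, while Zfhx3-CKO library 3 stands above Zfhx3-CKO libraries 1 and 2 for Tshz3, Prokr2 and Etv1.

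The stretches of genome just before the start of the called members are shown for Scgn and Vax1, since these are 2 of the 3 genes that rose and their stretches differ in base composition. They are the 250 bases before the RefSeq start (GRCm38), 5′ to 3′ on the gene's strand, in lower case, with each match to GGGCGG on either strand, the GC box of Sp and KLF factors, in capitals.
Scgn, chr13:23991215-23991464, minus strand: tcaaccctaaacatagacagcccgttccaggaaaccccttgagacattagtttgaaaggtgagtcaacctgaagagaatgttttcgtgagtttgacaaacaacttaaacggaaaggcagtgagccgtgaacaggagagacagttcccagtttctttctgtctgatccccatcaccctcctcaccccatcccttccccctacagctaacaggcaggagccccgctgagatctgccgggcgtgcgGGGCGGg
Vax1, chr19:59170398-59170647, minus strand: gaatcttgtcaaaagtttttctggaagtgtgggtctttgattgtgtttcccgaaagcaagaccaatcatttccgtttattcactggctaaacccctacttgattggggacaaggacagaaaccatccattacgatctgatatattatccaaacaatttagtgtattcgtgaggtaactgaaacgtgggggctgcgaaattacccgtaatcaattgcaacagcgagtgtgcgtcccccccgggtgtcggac
The Scgn stretch has a G and C content of 53.2% and holds the GC box 7 bases before the start, and the Vax1 stretch has 44.8% and no GC box; the median over all 32851 RefSeq windows of this length was 52.4%. The RefSeq start of Scgn is the end of its deposited span, whereas that of Vax1 lies outside its deposited span. The table holds 10 such windows for 8 of the members; Tshz1 and Calb2 were not matched. GGGCGG was in 5 of the 10 windows and in 32.7% of all windows. The homeodomain core TAATTA, which reads the same on both strands, was in 0 of the 10 and in 4.84% of all windows. The E-box CAGCTG, which also reads the same on both strands, was in 1 of the 10 (Prokr2) and in 13% of all windows.

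Per length, the members spanned a wide range of levels. The deposited FPKM of each member was its CPM over the plain library total divided by a fixed length (1.51 kb for Scgn, 5.66 kb for Tshz1, 13.3 kb for Etv1), the same in all 6 libraries. On that scale Vax1 was the highest member in both groups (51.7 ± 4.31 FPKM in Zfhx3-CKO and 39.2 ± 2.96 FPKM in control libraries; SD, n = 3 each) and Tshz1 came next (24.5 ± 2.14 and 16.5 ± 0.404 FPKM). Etv1 followed at 7.12 ± 1.58 and 8.07 ± 1.25 FPKM and Pax6 at 4.38 ± 0.773 and 4.06 ± 0.255 FPKM, and each of these 4 stood apart from its neighbour in the order. Vax1 lay above 94.9% of the tested genes in the Zfhx3-CKO group and above 92.5% in the control group. This order depends on the lengths. By mean CPM in Zfhx3-CKO libraries, Tshz1 (139), Etv1 (94.9), Vax1 (57.8) and Pax6 (51.2) stood in that order. In controls the order was Etv1 (107), Tshz1 (93.4), Pax6 (47.4) and Vax1 (43.7). In the Zfhx3-CKO libraries the next 4, Prokr2, Tshz3, Calb2 and Th, overlapped with each other from 1.94 to 2.53 FPKM on average, and Scgn (1.05 ± 0.223 FPKM) and Tshz2 (0.481 ± 0.0725 FPKM) came last without overlap. In the control libraries Prokr2 (3.12 ± 0.479 FPKM) and Calb2 (2.54 ± 0.102 FPKM) stood apart, Tshz3 (1.56 ± 0.190 FPKM) and Th (1.48 ± 0.144 FPKM) overlapped, and Scgn (0.441 ± 0.0961 FPKM) and Tshz2 (0.388 ± 0.0909 FPKM) overlapped at the bottom. The order of Scgn and Tshz2 was thus resolved in the Zfhx3-CKO libraries and not in the controls.

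**Figure D2:**
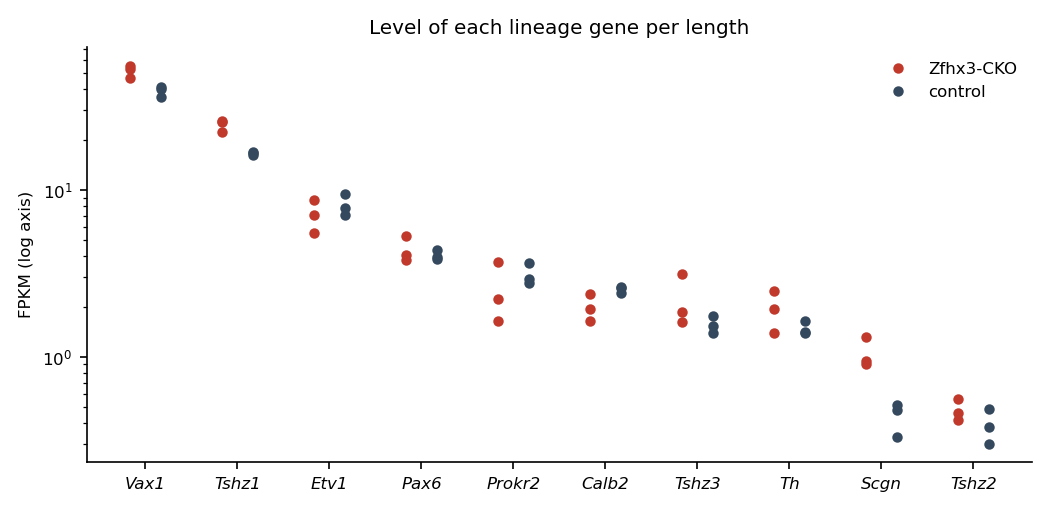
FPKM of each member in the 3 Zfhx3-CKO and 3 control libraries (points), on a log axis, ordered by the control mean. Vax1 and Tshz1 stand above the other members in both groups, and Tshz2, below 0.6 FPKM in every library, is at the low end.

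The Tshz genes encode teashirt zinc-finger transcription factors. Tshz1 (ENSMUSG00000046982, chromosome 18, 84011627 to 84086404, minus strand, GRCm38) is a member used to mark dorsal LGE cells and their bulb progeny. It was at 146, 125 and 146 CPM in Zfhx3-CKO libraries 1, 2 and 3 (139 ± 11.9 CPM) and, in control libraries 1, 2 and 3, at 95.1, 94.9 and 90.2 CPM (93.4 ± 2.79 CPM; SD, n = 3 each). Every Zfhx3-CKO library was above every control library, and the 3 controls lay within a narrow band. The rise was 1.49-fold (95% interval 1.32 to 1.69), or 0.57 on the log2 scale with an SE of 0.08 and an adjusted p of 0.00525. The authors' deposited table gives 0.55, with an adjusted p of 6.04e-07, and does not mark the gene as significant. Tshz1 passed in each of the 14 alternative settings, with log2 fold changes of 0.42 to 0.65. Its level was lowest, at 134% of the control mean, in Zfhx3-CKO library 2, and it was at 156% in the other 2 Zfhx3-CKO libraries. The median cortical gene stood at the control level in library 2. Lhx2 of that list was at 121 CPM there, against 50.9 to 67.4 CPM in controls. Pallial progenitor genes summed to 41.5 CPM in library 2 (25.3 to 39.6 CPM in controls). Medial ganglionic eminence genes summed to 557 CPM there (369 to 399.7 CPM in controls). Libraries 1 and 3, where the median cortical gene stood above the control mean, were also left out together. The lone Zfhx3-CKO library left is then taken to vary as the controls do, and the log2 fold change was 0.42. The parts of the cortical, pallial progenitor and medial ganglionic eminence genes in the Tshz1 value were not tested. Reads of Tshz1 from bulk LGE do not show which cells made them.

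Tshz2 (ENSMUSG00000047907, chromosome 2, 169633013 to 170071816, plus strand) was measured at 3.57, 3.28 and 4.40 CPM in Zfhx3-CKO libraries and 3.76, 2.96 and 2.33 CPM in control libraries. The groups overlapped, and the log2 fold change of 0.31 (95% interval -0.22 to 0.85, adjusted p 0.441) did not pass. Tshz3 (ENSMUSG00000021217, chromosome 7, 36698118 to 36773553, plus strand) was at 10.03, 8.83 and 17.3 CPM in Zfhx3-CKO libraries against 8.35, 9.64 and 7.47 CPM in controls. Only Zfhx3-CKO library 3, at 203% of the control mean, lay far from the rest; the log2 fold change was 0.50 (95% interval -0.07 to 1.08, adjusted p 0.25) and 0.15 without that library. Tshz2 and Tshz3 are also made by cortical neurons in mice. Zfhx3-CKO library 3 is the library with the highest sum of the cortical list, whose part in the Tshz3 value was not tested. By FPKM, Tshz1 made up 91.8%, 91.6% and 87.4% of the summed Tshz family in the Zfhx3-CKO libraries and 89.3%, 88.7% and 90.5% in the controls, so that its share overlapped between the groups. Whether the 3 Tshz genes differ in their change was not tested.

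Vax1 (ENSMUSG00000006270, chromosome 19, 59166187 to 59170056, minus strand) encodes a homeodomain factor of the ventral forebrain that is needed in mice for the normal production and migration of bulb interneurons. It was at 61.4, 59.2 and 52.8 CPM in Zfhx3-CKO libraries (57.8 ± 4.45 CPM), whereas control libraries had 40.1, 45.0 and 46.1 CPM (43.7 ± 3.2 CPM; SD, n = 3 each). The groups did not overlap; the nearest pair was Zfhx3-CKO library 3 and control library 3. The rise was 1.32-fold (95% interval 1.15 to 1.52), or 0.40 on the log2 scale with an SE of 0.09 and an adjusted p of 0.0345. The authors deposited a log2 fold change of 0.38 for Vax1, with an adjusted p of 0.00675 (no test named). They marked none of the 10 members as significant. Unlike Tshz3, its lowest Zfhx3-CKO value was in library 3, and without Zfhx3-CKO libraries 1 and 3 the log2 fold change was 0.44. The cortical and medial ganglionic eminence lists both summed higher in all 3 Zfhx3-CKO libraries than in the controls. Their part in the Vax1 value was not tested. The call was lost without Zfhx3-CKO library 1 or 2 or any 1 of the 3 control libraries, with log2 fold changes of 0.35 to 0.44 and adjusted p of 0.0516 to 0.137.

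Pax6 (ENSMUSG00000027168, chromosome 2, 105668900 to 105697364, plus strand) encodes a paired-homeodomain factor of dorsal LGE and pallial progenitors that is needed for dopaminergic periglomerular cells. It was measured at 61.1, 47.4 and 45.0 CPM in Zfhx3-CKO libraries against 46.2, 45.5 and 50.5 CPM in controls. Only Zfhx3-CKO library 1 lay above the controls, and the log2 fold change was 0.11 (95% interval -0.16 to 0.39, adjusted p 0.606), or -0.031 without that library. The 5 pallial progenitor genes summed to 83.4, 41.5 and 54.4 CPM in Zfhx3-CKO libraries 1, 2 and 3 and to 25.3 to 39.6 CPM in controls, with library 1 again the highest; their part in the Pax6 value was not tested.

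Etv1 (ENSMUSG00000004151, chromosome 12, 38779380 to 38870484, plus strand), also called Er81, encodes an ETS factor of dorsal LGE progenitors and of granule and periglomerular cells, and is made in deep-layer cortical neurons as well. It was measured at 93.8, 74.0 and 117 CPM in Zfhx3-CKO libraries and at 126, 103 and 92.6 CPM in controls. The groups overlapped, with a log2 fold change of -0.18 (95% interval -0.56 to 0.21, adjusted p 0.557). Without Zfhx3-CKO libraries 1 and 3 it was -0.53 (adjusted p 0.0602).

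Scgn (ENSMUSG00000021337, chromosome 13, 23953456 to 23991214, minus strand) encodes secretagogin, an EF-hand calcium-binding protein of migrating neuroblasts and bulb interneurons. It was detected by few reads, 29, 26 and 39 counts in Zfhx3-CKO libraries and 13, 8 and 12 in controls. That is 1.42, 1.38 and 2.0 CPM (1.6 ± 0.347 CPM) against 0.776, 0.504 and 0.717 CPM (0.666 ± 0.143 CPM; SD, n = 3 each), so that the groups did not overlap. The rise was 2.38-fold (95% interval 1.45 to 3.89), or 1.25 on the log2 scale with an SE of 0.31 and an adjusted p of 0.0477. The authors deposited a smaller log2 fold change for Scgn, 0.56, with no adjusted p, and did not mark the gene as significant. Scgn reached the filter level of 0.56 CPM in all 3 Zfhx3-CKO libraries but in only 2 of the 3 controls. The controls alone would therefore not have brought Scgn into the test, whereas the other 9 members reached that level in all 6 libraries. The call lay close to the threshold and was lost with DESeq2 (adjusted p 0.0839), without Zfhx3-CKO library 1 or 3 or any 1 of the 3 control libraries (0.0769 to 0.175), and without Zfhx3-CKO libraries 1 and 3 together (0.204). In those settings the log2 fold change was 1.03 to 1.38.

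Calb2 (ENSMUSG00000003657, chromosome 8, 110137502 to 110168210, minus strand) encodes calretinin, an EF-hand protein of granule and periglomerular interneurons. It was measured at 3.33, 2.86 and 4.20 CPM in Zfhx3-CKO libraries against 4.53, 4.53 and 4.18 CPM in controls. Zfhx3-CKO libraries 1 and 2 lay below the controls and library 3 among them; the log2 fold change of -0.35 (95% interval -0.81 to 0.10, adjusted p 0.306) did not pass.

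Th (ENSMUSG00000000214, chromosome 7, 142892752 to 142931128, minus strand) encodes tyrosine hydroxylase, the rate-limiting enzyme of catecholamine synthesis and the marker of dopaminergic periglomerular cells. It was measured at 3.28, 4.6 and 5.94 CPM in Zfhx3-CKO libraries and at 3.28, 3.9 and 3.29 CPM in controls. The groups overlapped (log2 fold change 0.40, 95% interval -0.16 to 0.95, adjusted p 0.339). Of the 7 genes listed for midbrain dopamine and noradrenergic cells, among them Slc6a3, Dbh and Pitx3, none had more than 4 counts in any library. Their sum was 0.0489 to 0.476 CPM in Zfhx3-CKO libraries and 0.239 to 0.359 CPM in controls. Slc6a3 also stands on the list of bulb transmitter and subtype genes below. Which cells made the Th reads was not tested.

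Prokr2 (ENSMUSG00000050558, chromosome 2, 132337733 to 132385447, minus strand) encodes a G-protein-coupled receptor for the secreted prokineticins. It was measured at 17.5, 13.0 and 29.7 CPM in Zfhx3-CKO libraries (20.1 ± 8.63 CPM) and at 29.1, 22.0 and 23.0 CPM in control libraries (24.7 ± 3.8 CPM; SD, n = 3 each). Zfhx3-CKO libraries 1 and 2 lay below every control, at 70.9% and 52.7% of the control mean, and library 3 lay above every control, at 120% of it. The log2 fold change of -0.30 (95% interval -0.92 to 0.32, adjusted p 0.531) did not pass. Without Zfhx3-CKO library 3 Prokr2 passed as lower (log2 fold change -0.69, adjusted p 0.0323), as it did without libraries 1 and 3 (-0.93, adjusted p 0.0171). Of all genes tested, 6.06% were called lower without library 3 and 4.93% without libraries 1 and 3. Without libraries 1 and 3, 4.97% of all genes and, among the members, Tshz1 and Vax1 were called higher. The ligand gene Prok2 was at 1.61, 1.69 and 1.43 CPM in Zfhx3-CKO libraries against 1.61, 0.693 and 0.658 CPM in controls (adjusted p 0.295), and the paralogous receptor gene Prokr1 at 9.05, 7.46 and 5.22 CPM in Zfhx3-CKO libraries against 4.83, 5.10 and 4.78 CPM in controls (adjusted p 0.145). Neither passed with all libraries, and Prokr1 passed as higher without Zfhx3-CKO library 3. Both were named here for their relation to Prokr2, after their values were seen.

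**Figure D3:**
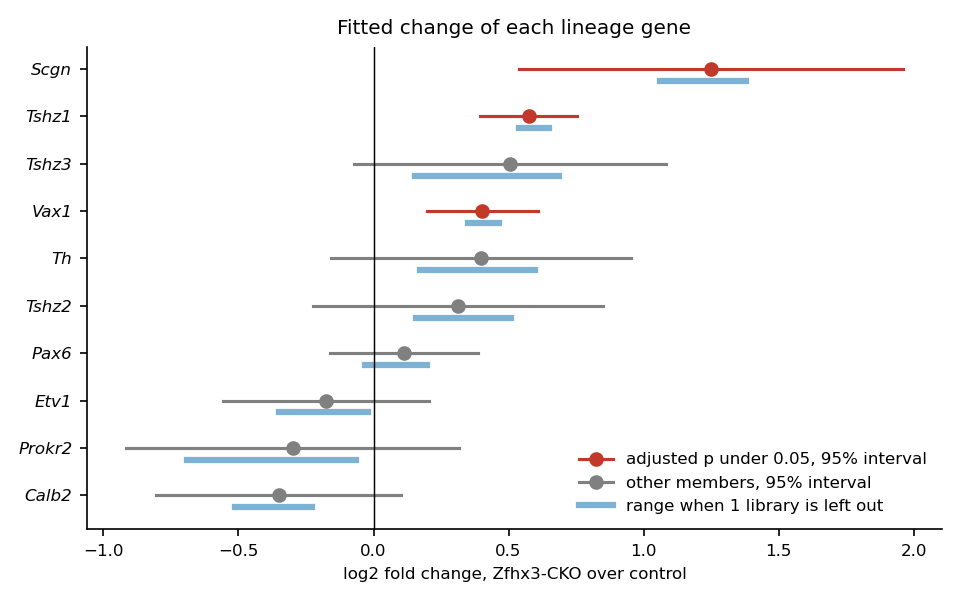
Fitted log2 fold change (Zfhx3-CKO over control) of each member with its 95% interval, in red where the adjusted p is under 0.05; blue bars span the estimates with 1 library left out. The intervals of Scgn, Tshz1 and Vax1 lie above 0, and the blue bar of Prokr2 runs from -0.69 to -0.06.

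The 3 Zfhx3-CKO libraries differed in a similar order for many members. Library 3 was the highest and library 2 the lowest of the 3 for 6 members (Tshz2, Tshz3, Scgn, Prokr2, Etv1 and Calb2), an order held by 24.5% of all genes tested. The spread from lowest to highest library was 1.19 (log2) for Prokr2 and 0.97 for Tshz3 in the Zfhx3-CKO group, against 0.40 and 0.37 in the control group. It was 0.22 for both Tshz1 and Vax1 in the Zfhx3-CKO group, against 0.08 and 0.20 in the control group. The median cortical gene took the same order over these libraries (1.24, 0.00 and 1.89 in libraries 1, 2 and 3), and its part in the members' order was not tested.

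**Figure D4:**
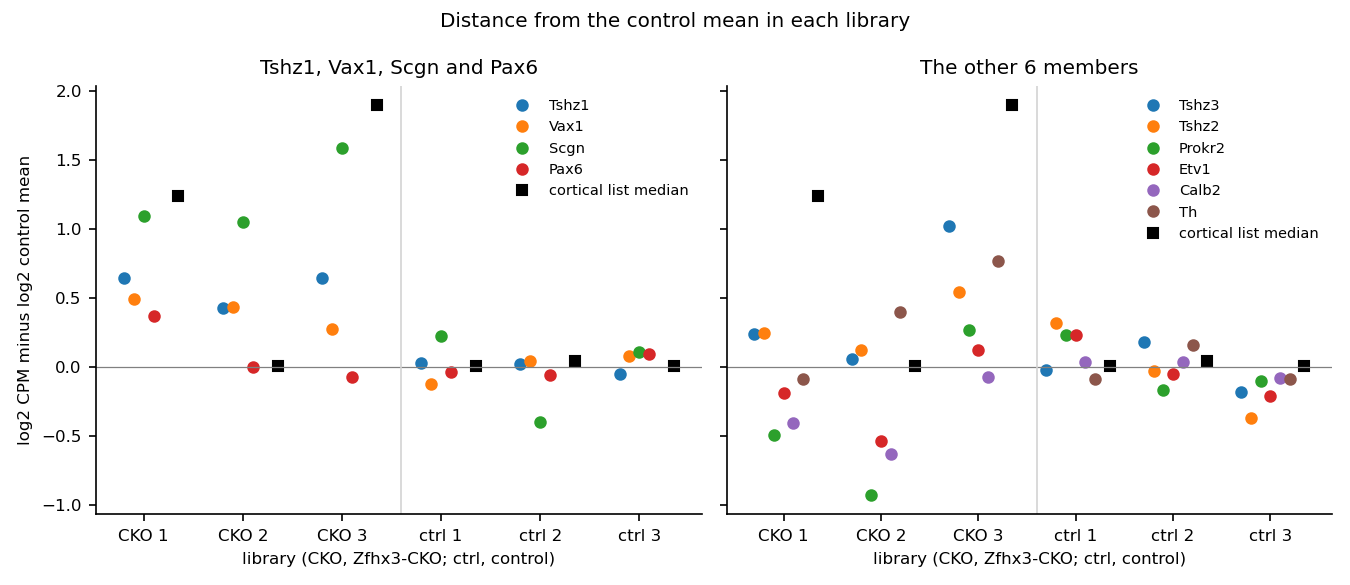
Distance of each library from the control mean (log2 CPM) for Tshz1, Vax1, Scgn and Pax6 (left) and the other 6 members (right), with the median over the tested cortical excitatory neuron genes as black squares (log2 of CPM + 0.5). In Zfhx3-CKO library 2, where the black square is at 0.00, Tshz1, Vax1 and Scgn stand at 0.42, 0.44 and 1.05, and Prokr2 and Etv1 at -0.93 and -0.53.

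The rest of the lineage was described by 3 lists that do not hold the members, to be read against the 3.87% higher, 3.48% lower and median of 0.00 of all genes tested. Of 19 transcription factors of the dorsal LGE and of bulb interneurons, 2 rose, 17 did not pass and none fell in edgeR's test. None was lower at an unadjusted p under 0.05 or with DESeq2, and the median log2 fold change was 0.08. Gsx2, Dlx1, Dlx2, Dlx5 and Meis2 also stand on the list of 13 LGE and striatal genes, so these lists are not separate readings. Sp9, a zinc-finger factor that acts with Sp8 in bulb interneurons and is also needed for D2-type striatal neurons, on whose list it stands too, was at 374 ± 32.9 CPM in Zfhx3-CKO libraries and 186 ± 27.8 CPM in controls (log2 fold change 1.01, adjusted p 0.00244) and passed in each of 14 alternative settings. Zic1, a zinc-finger factor of neural progenitors, was at 32.2, 34.9 and 49.8 CPM in Zfhx3-CKO libraries against 27.1, 21.5 and 18.6 CPM in controls, a rise of 0.80 on the log2 scale (adjusted p 0.0438). Its call was lost without Zfhx3-CKO library 1, with limma-trend on log2(FPKM + 1), without any 1 control library and without Zfhx3-CKO libraries 1 and 3 (highest adjusted p 0.161). Gsx2, a homeodomain factor of LGE progenitors, differed by 0.48 on the log2 scale, which did not pass (adjusted p 0.177). It passed as higher without Zfhx3-CKO library 3 (adjusted p 0.0196), where the list had 5 higher genes and 6.47% of all genes tested were higher.

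Of 18 genes of migration to the bulb, 3 rose, 15 did not pass and none fell in edgeR's test; 3 were lower at an unadjusted p under 0.05, and DESeq2 called 1 lower. The median log2 fold change was -0.04. Tnr, which encodes the matrix protein tenascin-R that attracts neuroblasts into the bulb, was at 67.6, 69.2 and 80.3 CPM in Zfhx3-CKO libraries against 41.5, 37.5 and 34.1 CPM in controls (log2 fold change 0.94, adjusted p 0.00183). Ntn1, the gene of the guidance cue netrin-1, was at 168, 207 and 176 CPM in Zfhx3-CKO libraries against 121, 114 and 98.9 CPM in controls (log2 fold change 0.72, adjusted p 0.00637). Slit1, a repulsive cue for these neuroblasts, was at 204, 215 and 205 CPM in Zfhx3-CKO libraries against 140, 159 and 156 CPM in controls (log2 fold change 0.45, adjusted p 0.00921). The 3 calls held without any single library, and the groups did not overlap for any of the 3. Cd24a, which encodes a surface glycoprotein of neuroblasts, had the next smallest p (log2 fold change -0.20, adjusted p 0.065), and passed as lower without Zfhx3-CKO library 3 (adjusted p 0.0428). Without Zfhx3-CKO library 3, 3 genes were lower (Cd24a, Ncam1 and Robo2) and Prokr1 was also higher; without any other single library 0 were lower in edgeR's test. Without Zfhx3-CKO libraries 1 and 3, 4 were lower (Ncam1, Nrg1, Robo2 and Reln). Cd24a apart, the genes of these counts were picked out after their values were seen.

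Of 14 transmitter and subtype genes, 10 were tested, of which 2 rose, 1 fell and 7 did not pass in edgeR's test. Their median log2 fold change was 0.12, and Pvalb, Slc6a3, Vip and Crh were under the filter. At an unadjusted p under 0.05, 4 were higher and 2 lower, and DESeq2 called 3 higher and 1 lower. Gad2, a GABA-synthesising enzyme of all these neurons, fell to 418 ± 5.66 CPM in Zfhx3-CKO libraries, against 534 ± 46.8 CPM in controls (log2 fold change -0.35, adjusted p 0.0293). Calb1, the calbindin gene of a periglomerular subtype and of striatal neurons, was at 56.3, 36.4 and 60.9 CPM in Zfhx3-CKO libraries against 33.5, 28.2 and 29.0 CPM in controls (log2 fold change 0.76, adjusted p 0.0407), and at 0.27 (adjusted p 0.226) without Zfhx3-CKO libraries 1 and 3. Slc18a2, the vesicular monoamine transporter gene, was at 233, 224 and 199 CPM in Zfhx3-CKO libraries against 182, 180 and 166 CPM in controls (log2 fold change 0.31, adjusted p 0.0489). Nr4a2, the gene of a nuclear receptor of dopaminergic neurons, was at 4.16, 6.93 and 11.4 CPM in Zfhx3-CKO libraries against 2.98, 2.65 and 3.35 CPM in controls. Its log2 fold change was 1.32 (adjusted p 0.0551 in edgeR's test). It passed in 4 of 13 alternative settings, among them DESeq2, no low-count filter and the fit without Zfhx3-CKO library 1 (adjusted p 0.0263). Without 1 library the call of Gad2 was lost for Zfhx3-CKO library 1 and control libraries 1 and 2, that of Calb1 for Zfhx3-CKO library 1 and each control library, and that of Slc18a2 for Zfhx3-CKO libraries 1 and 2 and each control library (highest adjusted p 0.134, 0.159 and 0.163). Gad2 also lost its call without Zfhx3-CKO libraries 1 and 3, Slc18a2 with plain library totals, and both Calb1 and Slc18a2 with limma-trend, which left 0 of the list higher.

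**Figure D5:**
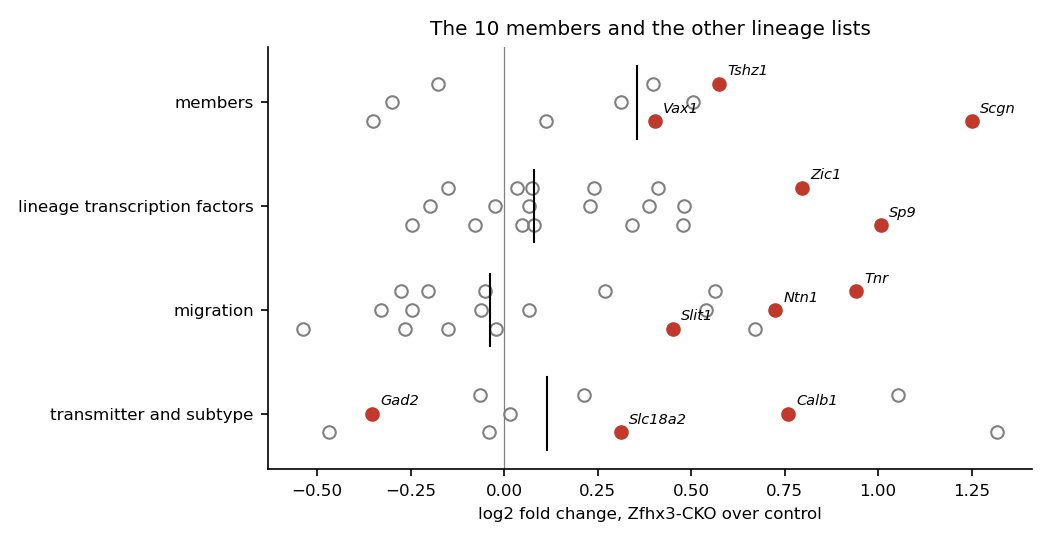
Log2 fold change (Zfhx3-CKO over control) of each tested gene of the 10 members and of the 3 other lineage lists; filled red points with a name have an adjusted p under 0.05, open points do not, and the black bar is the list median. The medians lie at 0.36, 0.08, -0.04 and 0.12 from top to bottom, and Gad2 is the only filled point below 0.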

How the data were processed

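Per the file headers, the authors deposited a raw count and an FPKM value (the count scaled by gene length and library size) for each gene and library; the counts were used unaltered. The full table also carries log2 fold changes and p-values that the authors deposited with no test named. For 14938 genes, Scgn among them, no adjusted p was given. Submitters' processing notes list bcl2fastq 2.17.1.14, HISAT2, StringTie and edgeR with the builds GRCm38.p4 and mm10; the step that each served, and the annotation release, are not given in the sources used here. Short column names were tied to sample titles by group word and number; a second, shorter table with full titles as column names has identical values for all its 3726 genes. The kit named in the labels' protocols is a TruSeq RNA kit, and no strand setting is given. Genes whose spans overlap a member's (Tshz2, Tshz3 and Pax6 have such) had at most 8 counts in any library.

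Groups were compared by edgeR's quasi-likelihood test (edgeR 4.0.16, limma 3.58.1, R 4.3.3) on the counts with TMM factors (0.9921 to 1.008), filterByExpr at a minimum count of 10 (16551 genes kept, 13108 left out), group as the only term and Benjamini-Hochberg adjustment at 0.05. It was tested on simulated data. CPM uses library totals times TMM factors; errors are SD over 3 libraries, and SEs come from the F statistic. Within each group, any pair of libraries differed beyond counting noise (chi-square per gene 3.15 to 26.7; about 1 from noise alone). Alternatives were DESeq2 1.42.0, RLE factors, library totals, no filter, at least 5 CPM in 3 libraries, the replicate number as a block, limma-trend on log2(FPKM + 1) with a filter of 1 FPKM in 3 libraries, each library left out, and Zfhx3-CKO libraries 1 and 3 left out. The members and lists were chosen with earlier results of these data known. All members were named, and of each other lineage list up to 4 genes with the smallest p, of which 1 is not reported here. Promoter sequences are from RefSeq (GRCm38.p6), which shares its chromosome coordinates with GRCm38.p4.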

Additional observations from a re-analysis of the deposited data

How the results depend on the processing

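Tshz1 kept its direction and its call in all 14 settings run for it (adjusted p 4.5e-07 to 0.0399). Vax1 lost its call in 6 of 14 settings and Scgn in 8 of 12, with no change of direction. Prokr2 gained a call as lower in 2 of 14, of which 1 left a lone Zfhx3-CKO library. Among the members, only Pax6 changed sign in any setting (-0.031, adjusted p 0.889, without Zfhx3-CKO library 1; -0.031 to 0.20 over the fits without 1 library). Scgn and Tshz2 were under the strict filter and the FPKM filter, and Calb2 and Th under the strict filter. With 1 library left out, 1 to 2 members were called higher and 0 to 1 lower, and over all genes 156 to 1082 were higher and 131 to 1014 lower, against 640 and 576 with all libraries; the most came without Zfhx3-CKO library 3, and both counts moved by over 1.5 times without it, Zfhx3-CKO library 1 or any 1 control library. DESeq2 called 1021 genes higher and 755 lower, and testing without a filter on low counts 1075 and 786. The fit without Zfhx3-CKO libraries 1 and 3 leaves a lone library in that group, and its calls rest on the spread of the controls. Nothing in the labels ties libraries of equal replicate number. The deviations of same-numbered libraries from their group means correlated at -0.07, -0.10 and -0.32 over genes. No Zfhx3-CKO library correlated best with the control of its own number. Over 3 libraries per group, such correlations cannot decide whether libraries were paired. With the replicate block, 1 member (Tshz1, adjusted p 0.0395) was called higher, and 176 genes were higher and 136 lower over all genes; Slit1 had an adjusted p of 0.0502 there, Zic1, Gad2, Calb1 and Slc18a2 lost their calls, and 0 transmitter and subtype, 0 cortical, 1 medial ganglionic eminence and 3 D2-type genes were higher. In the other lineage lists, the fits with 1 library left out called 1 to 5 transcription factors, 3 to 4 migration genes and 0 to 2 transmitter and subtype genes higher. With no low-count filter, 9 cortical and 5 medial ganglionic eminence genes were higher. The cause of these changes was not tested. Counts limit Scgn, Tshz2, Calb2 and Th most, with 8 to 116 counts per library.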
